A study of Homo sapiens with 104 samples.

Results

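Cytosolic ribosomal proteins are the protein subunits of the ribosome that translates messenger RNA in the cytoplasm. Small-subunit proteins carry the symbol RPS, and large-subunit proteins carry RPL or RPLP. Members were chosen by symbol alone: genes whose single symbol in the platform annotation is RPL or RPS followed by a number, or RPLP0 to RPLP2, without the RPS6 kinases, the Y-linked copies of RPS4 and pseudogenes. Of 19775 genes with a single symbol, 62 matched. They comprised 52 core genes, 8 paralogues whose symbols end in L or L1 (RPL3L, RPL7L1, RPL10L, RPL22L1, RPL26L1, RPL36AL, RPL39L and RPS27L) and 2 noncoding transcripts named after neighbouring genes (RPL26L1-AS1 and RPL34-DT).

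Core ribosomal protein genes are transcribed in every growing cell, and their messenger RNAs typically begin with a C followed by a run of pyrimidines, a motif through which growth signals govern their translation. The paralogues arose as copies of core genes and are more restricted. RPL10L and RPL39L are known from male germ cells, and RPS27L is a known target of the damage-induced transcription factor p53. Several core proteins have a second role in the damage response, in which they bind and inhibit the p53 ligase MDM2.

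The arrays measured RNA of 26 human lymphoblastoid lines, which are B-cell lines in long-term culture. The groups were MNNG-exposed and untreated cells of 24 numbered panel lines, of TK6, an established human lymphoblastoid line, and of MT1, an alkylation-tolerant derivative of TK6 that lacks mismatch repair. MNNG is an agent that methylates DNA. All cells were in mid log phase, and neither dose nor time of exposure is given in the sources used here. Each line and treatment had 2 arrays. Nothing says whether the 2 came from separate cultures, so tests on single arrays measure the spread between arrays, which may be technical.

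In 22 of the 52 MNNG arrays, the bacterial control transcript cre, which is spiked in and read by several probe sets, had a difference of -6.45 to -5.19 log2 units between 2 of them, whereas the same difference was 0.082 to 0.83 in the other 82 arrays. These 22 arrays (21 of the panel, 1 of MT1 and 0 of TK6) were set aside. That left 19 panel lines with MNNG arrays, both arrays of TK6 with MNNG, and 1 array, replicate 2, of MT1 with MNNG. Median intensity per array was 16.0 to 64.4 in deposited units, and the number of arrays limits the precision. All 5 B-cell markers measured (MS4A1, CD79A, CD79B, CD22 and PAX5) had mean untreated levels of 8.71 to 12.1. Those of T and NK cells lay between 5.58 and 6.08, myeloid markers between 5.70 and 7.21, and fibroblast and epithelial markers between 5.31 and 7.50. Levels here are log2 of the intensity plus 16 after quantile normalisation, a scale that ends at 5.

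All 52 core genes and 7 of the 8 paralogues passed the filter on dim genes, which lay at a mean level of 5.64. RPL3L, known from muscle, had a mean of 5.63 over the arrays and was not tested, nor were RPL26L1-AS1 (5.48) and RPL34-DT (5.36). Core genes without a probe set of their own, 15 symbols such as RPL10, RPL13A and RPL5, were measured only by probe sets that also carry other symbols and were not analysed here. The 62 members had 123 probe sets, and the brightest stood for each gene. Of the 52 core genes tested, 15 were represented by a probe set with the suffix _x_at, which marks probes that can also bind other transcripts, and the paralogues by 1 of 7. Signal from copies close in sequence can therefore be shared, and this was not tested. RPL27A, RPL36A and RPLP2 were represented by dim probe sets whose mean levels stood below 8. RPL10L, RPL22 and RPL35, named as markers of the gene group, all passed the filter.

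A pyrimidine tract at the annotated start of the transcript was found in most core genes and in few of the paralogues examined. The windows below hold 20 bases on each side of the annotated start and are shown for 3 paralogues with their core counterparts, and for RPL10L and RPL35. Capitals mark a tract that begins with C at the start base and runs on in C or T for at least 5 bases. The call thus rests on the annotated start base. In RPL36AL a run of C and T crosses the start, but only 3 of its bases follow from the start base, so it was not counted. Sequences are those of RefSeq on GRCh38.p14, given 5′ to 3′ on the strand of the gene.
RPS27L, chr15:63157458-63157497, minus strand: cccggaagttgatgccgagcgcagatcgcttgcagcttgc
RPS27, chr1:153990742-153990781, plus strand: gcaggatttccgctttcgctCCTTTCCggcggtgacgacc
RPL22L1, chr3:170870176-170870215, minus strand: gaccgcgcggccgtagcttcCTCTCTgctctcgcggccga
RPL22, chr1:6199576-6199615, minus strand: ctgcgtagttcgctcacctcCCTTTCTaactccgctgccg
RPL36AL, chr14:49620607-49620646, minus strand: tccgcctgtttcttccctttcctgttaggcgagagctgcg
RPL36A, chrX:101390991-101391030, plus strand: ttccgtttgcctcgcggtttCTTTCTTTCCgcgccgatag
RPL10L, chr14:46651762-46651801, minus strand: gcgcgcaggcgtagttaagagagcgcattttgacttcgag
RPL35, chr9:124861938-124861977, minus strand: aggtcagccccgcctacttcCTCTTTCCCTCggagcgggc

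Windows of 300 bases, 250 before the start and 50 after it, were matched for 46 of the core genes and 6 of the paralogues. The tract stood at the start base of 33 of the 46 core genes (71.7%), of 1 of the 6 paralogues (RPL22L1) and of 4.04% of 27305 windows of all genes. Its length in the printed windows was 7 bases in RPS27 and RPL22, 6 in RPL22L1, 10 in RPL36A and 11 in RPL35. Searched on both strands of the whole window, the ETS motif CCGGAAG occurred in 37.0% of the core windows, 33.3% of the paralogue windows and 10.7% of all windows. The YY1 motif ATGGCG occurred in 30.4%, 50% and 11.0% of the same sets, and the motif TCTCGCGA in 15.2%, 0.0% and 1.19%. The 3 motifs do not contain one another. A match is a description of these letters, not a binding site.

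The panel comparison asked how the members changed with MNNG across lines, each line serving as its own control. In 11 panel lines only 1 MNNG array was left, which was set against the mean of 2 untreated arrays. That array was replicate 1 except in lines 4 and 17, so replicate number was not balanced between treatments. With replicate as a block 39 members passed, in a model of single arrays and not of line means as in the main test. Without replicate 1, which leaves fewer lines, 10 did. Among the core genes 25 rose, 2 fell and 25 did not pass the test, while all 7 paralogues tested rose (limma with line as a block, Benjamini-Hochberg adjusted p below 0.05 over 13842 genes). Of all genes tested, 42.6% passed, 28.7% with a rise and 13.8% with a fall. By the brightest probe sets, the core changes were small. Their median was 0.034 on the log2 scale, against 0.037 for all genes tested, and they ran between -0.076 and 0.27. Some dimmer probe sets changed more, in either direction (limma, adjusted over probe sets). Those of RPL37 (-0.35, adjusted p = 2.92e-08) and RPS23 (-0.28, adjusted p = 1.23e-05) fell. Those of RPL38 (0.52, adjusted p = 1.63e-05) and RPS19 (0.36, adjusted p = 4.31e-06) rose. The median of the 7 paralogues was 0.18. Since RNA of whole cultures was measured, fewer cells of a type and less RNA per cell cannot be told apart.

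The direction of the core genes depended on how the arrays were scaled, as the plot of medians under 3 scalings shows. With values as deposited, 4 core genes rose and 5 fell, and their median was -0.027 against 0.13 for all genes. With arrays centred on their medians, 3 rose and 16 fell, with a median of -0.18 against -0.021 for all genes. Against all genes tested, the core median thus stood at -0.0032 after quantile normalisation and at -0.16 under either other scaling. Centring shifts all values of an array alike, so the other scalings share this difference by construction and count as 1 result. For the paralogues the difference from all genes was 0.14 after quantile normalisation and 0.014 under the others. Of the paralogues 6 rose with values as deposited and 1, RPL10L, rose with centring on medians. With all arrays, the 22 included, 49 of the 59 members tested passed, of which 11 rose, and the median of the 51 core genes tested was -1.46. Without replicate 1, which leaves 10 lines, 10 members passed.

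**Figure D1:**
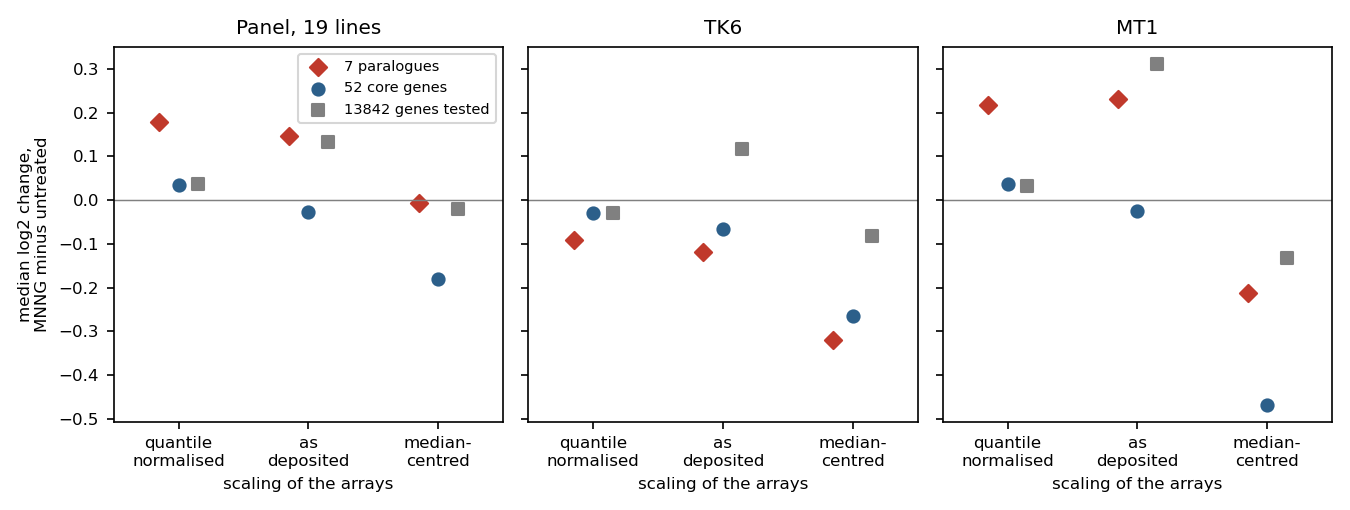
Median log2 change, MNNG minus untreated, of 7 paralogues (diamonds), 52 core genes (circles) and 13842 genes tested (squares) in the panel, TK6 and MT1, for 3 ways of scaling the arrays. The core median lay at that of all genes after quantile normalisation and below it in each comparison under the other scalings, by 0.16 in the panel. Those other scalings share this difference by construction.

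RPS27L, the paralogue of the zinc-finger protein RPS27 of the small subunit, rose in every line. Its level over the 19 lines with MNNG was 11.10 at the lowest, 11.65 at the median and 12.33 at the highest, against 10.85, 11.22 and 12.05 in the same lines untreated. The ranges overlapped because untreated lines differed, but within lines the change was positive in 19 of 19, between 0.082 in line 10 and 0.80 in line 4. The mean change was 0.33 ± 0.040 (SE, n = 19, limma adjusted p = 7.73e-07), a fold of 1.26. Its 2 dimmer probe sets gave 0.44 and 0.57. With centring on array medians the change was 0.17 and did not pass (adjusted p = 0.176). RPS27 itself rose by 0.11 ± 0.016 (adjusted p = 1.80e-05), in 18 of 19 lines.

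RPL22L1 and RPL26L1, paralogues of 2 large-subunit proteins, rose by similar amounts. RPL22L1, whose core counterpart RPL22 is known to bind small noncoding RNAs, ranged over lines from 11.76 through a median of 12.04 to 12.30 with MNNG, against 11.50, 11.88 and 12.14 untreated. It was higher with MNNG in 17 of 19 lines, by 0.18 ± 0.024 on average (adjusted p = 2.95e-06). RPL26L1 had levels of 9.72, 10.13 and 10.63 with MNNG, against 9.53, 9.88 and 10.48 untreated. It was higher in 18 of 19 lines, by 0.18 ± 0.024 (adjusted p = 1.75e-06), and with centring on array medians it was at 0.029 (adjusted p = 0.809). For both, the levels of MNNG and untreated lines overlapped, and the shift appeared within lines. RPL22 itself rose by 0.045 ± 0.014 (adjusted p = 0.0107), in 16 of 19 lines. That call was lost without replicate 1 (0.072, adjusted p = 0.152) and without replicate 2 (0.022, adjusted p = 0.321), and the 5 probe sets of RPL22 did not move alike: the dimmest fell by 0.17 (adjusted p = 1.92e-05), with a higher value in 2 of 19 lines.

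RPL36AL, RPL39L and RPL7L1 rose less. RPL36AL, an autosomal copy of the X-linked RPL36A, had levels of 11.53, 11.72 and 12.12 with MNNG, against 11.48, 11.58 and 11.94 untreated, and rose by 0.12 ± 0.020 in 18 of 19 lines (adjusted p = 3.46e-05). RPL39L, whose core counterpart lines the exit tunnel of the ribosome, had levels of 7.50, 8.26 and 8.73 with MNNG, against 7.62, 8.02 and 8.63 untreated. It rose by 0.12 ± 0.037, with a higher value in 14 of 19 lines (adjusted p = 0.0131). RPL7L1 rose by 0.075 ± 0.023, in 16 of 19 lines (adjusted p = 0.0120). The calls of all 3 were lost without replicate 1, which leaves 10 lines (adjusted p = 0.133 for RPL36AL, 0.623 for RPL39L and 0.326 for RPL7L1), and RPL7L1 was also lost without replicate 2 (adjusted p = 0.0553). With centring on array medians RPL22L1, RPL36AL, RPL39L and RPL7L1 had changes below 0, between -0.0074 and -0.079, none of which passed. Of their core counterparts, RPL36A rose by 0.21 ± 0.039 (adjusted p = 0.000174, and 0.242 without replicate 1), RPL39 changed by -0.0065 ± 0.015 (adjusted p = 0.767) and RPL7 by 0.026 ± 0.011 (adjusted p = 0.0631).

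RPL10L, an intronless copy of the X-linked RPL10, had the largest panel change of the members and the widest spread. Its level over lines was 9.46 at the lowest, 9.86 at the median and 10.40 at the highest with MNNG, against 7.51, 9.45 and 9.91 untreated. The mean change was 0.59 ± 0.12 (adjusted p = 0.000514), with a median of 0.43 and a highest value of 2.35 in line 3. In 9 of the 82 arrays RPL10L stood below 9, and 8 of them were replicate 2: the untreated arrays of lines 1, 2, 3, 8 and 13, of MT1 and of TK6, and the MNNG array of TK6. The other was replicate 1 of untreated MT1. In deposited units it was as low as 16.0, at the floor of the values, and the deposited array medians of these 9 arrays were 19.8 to 37.8. Without replicate 2 the change was 0.37 ± 0.035 in 17 lines, positive in 17 of 17, and passed (adjusted p = 2.04e-07). Without replicate 1 it was 0.39 ± 0.19 in 10 lines, positive in 9 of 10, and did not pass (adjusted p = 0.233). The part that replicate number plays in the low values was not tested.

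**Figure D2:**
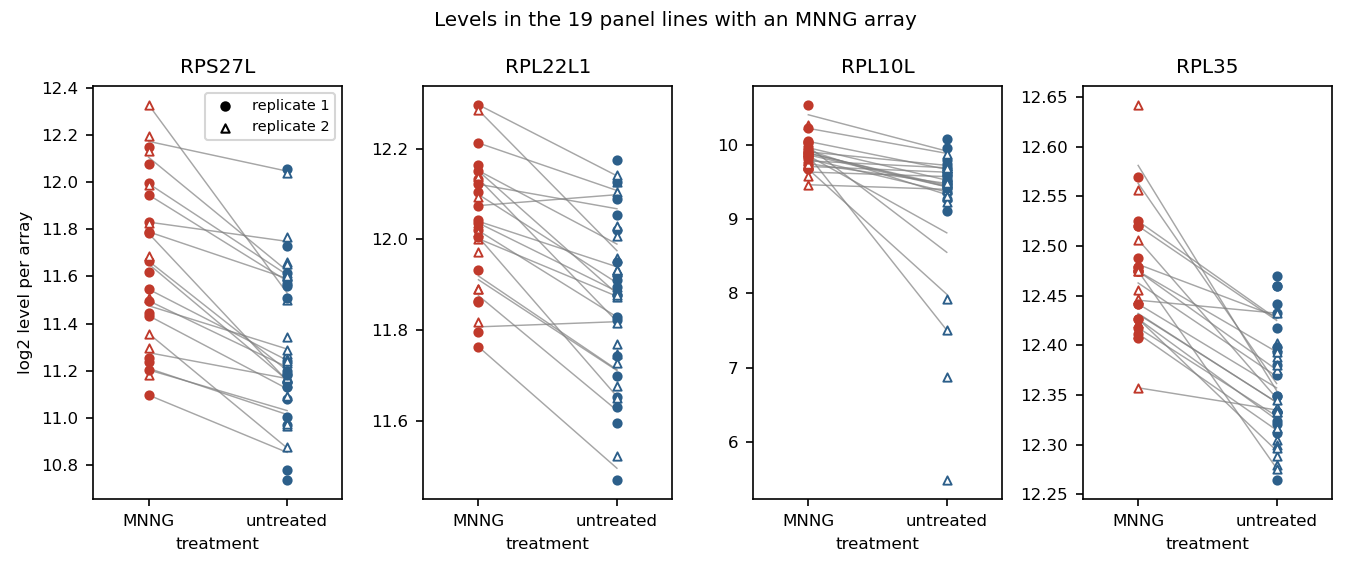
Log2 level of RPS27L, RPL22L1, RPL10L and RPL35 in single arrays of 19 panel lines with MNNG (left) and untreated (right); circles are replicate 1, triangles replicate 2, and each line joins the means of a cell line. RPS27L was higher with MNNG in 19 of 19 lines, RPL22L1 in 17 of 19, and the low RPL10L points are untreated replicate 2 arrays.

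Among core genes of the large subunit, RPL35, which lies at the exit tunnel where the signal recognition particle docks, rose in all lines. It had levels of 12.36, 12.46 and 12.58 with MNNG, against 12.28, 12.35 and 12.43 untreated, and a mean change of 0.11 ± 0.015 (19 of 19 lines, adjusted p = 6.75e-06). With values as deposited its change was 0.048 (adjusted p = 0.119), and with centring it was -0.11. RPL38, which in mice is needed for translation of Hox messenger RNAs, rose by 0.11 ± 0.018 in 19 of 19 lines (adjusted p = 1.50e-05). RPL35A, a gene mutated in Diamond-Blackfan anaemia, rose by 0.11 ± 0.018 in 18 of 19 lines, and RPL36 by 0.16 ± 0.037 in 15 of 19 (adjusted p = 0.00125). RPL27A, read by a dim probe set, rose by 0.27 ± 0.056 in 17 of 19 lines (adjusted p = 0.000345), with levels of 6.95, 7.46 and 8.32 with MNNG, against 6.87, 7.14 and 7.99 untreated, a call lost without replicate 2 (0.16, adjusted p = 0.146). RPLP2, of the stalk that binds elongation factors, rose by 0.16 ± 0.051 in 14 of 19 lines (adjusted p = 0.0135), also near the bottom of the scale. In the small subunit RPS10 rose by 0.089 ± 0.014 in 19 of 19 lines (adjusted p = 2.61e-05). Its other bright probe sets gave 0.11 (adjusted p = 1.37e-05) and 0.039 (adjusted p = 0.0921), and a dim one fell by 0.16 (adjusted p = 0.0244).

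RPL10A and RPL8, both of the large subunit, were the core genes with a called fall in their brightest probe set, and for RPL10A the probe sets disagreed. RPL10A, of the stalk at which transfer RNAs leave, had levels of 12.70, 12.82 and 13.01 with MNNG, against 12.85, 12.91 and 13.00 untreated. By that probe set it fell in 14 of 19 lines, by 0.076 ± 0.020 on average (adjusted p = 0.00306). Its other probe set, with a mean level of 12.46, rose by 0.12 ± 0.018 in 19 of 19 lines (adjusted p = 8.75e-06), so no direction is given for the gene. RPL8, which contacts the peptidyl transferase centre, fell in 15 of 19 lines, by 0.043 ± 0.017 (adjusted p = 0.0456). The call of RPL8 was lost without replicate 1, where the change was 0.022, and without any of 14 of the 19 lines left out in turn. The fall in the brightest probe set of RPL10A was not called without replicate 1 (-0.076, adjusted p = 0.172), and the mean of both probe sets changed by 0.023.

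Line by line, after quantile normalisation, the median change of the 52 core genes was above 0 in 18 of 19 lines. It lay between -0.0075 in line 23 and 0.082 in line 19. The values of this paragraph were not taken under the other scalings, in which the core median of the panel was -0.027 and -0.18. The core median of a line exceeded the median of all genes in 11 of 19 lines. The median of the 7 paralogues exceeded the core median in 19 of 19 lines. Core genes with the pyrimidine tract at the start base had a median panel change of 0.059 (n = 33, from -0.027 to 0.27), and those without it 0.0097 (n = 13, from -0.076 to 0.077). The highest value, 0.27, was that of RPL27A, read by a dim probe set. In TK6 the medians were -0.051 with the tract and -0.0051 without it, and in MT1 they were 0.048 and 0.039. The ranges overlapped in each comparison, and no test was made on these lists.

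**Figure D3:**
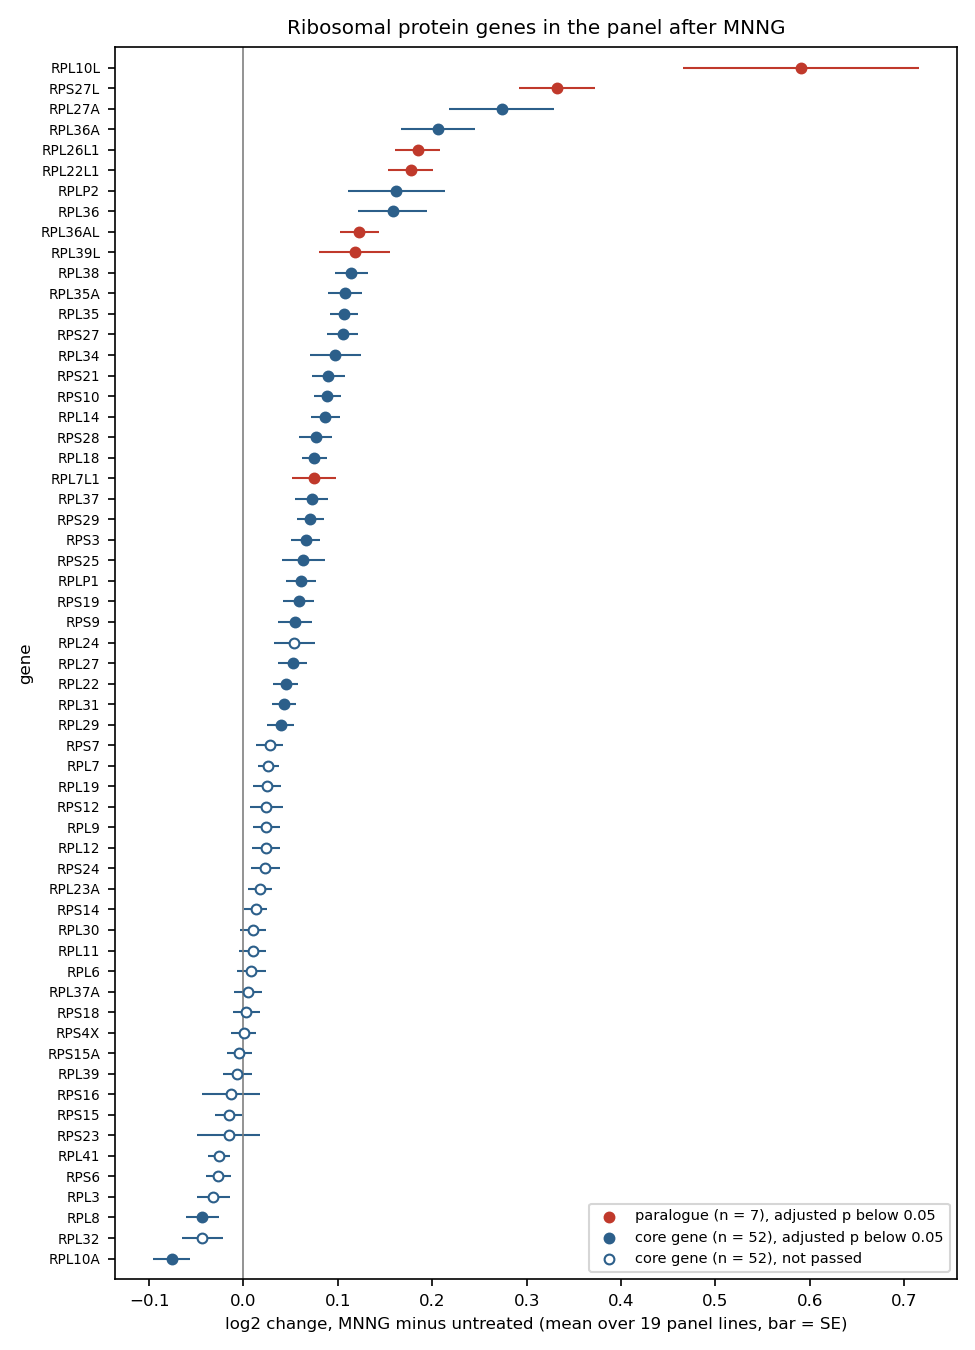
Mean log2 change, MNNG minus untreated, of each member tested over 19 panel lines, with its SE as a bar; red marks paralogues and blue core genes, and filled points passed at an adjusted p below 0.05. The 7 paralogues all lie above 0, the 25 core genes that rose lie between 0.040 and 0.27, and RPL8 and RPL10A lie below 0; each gene is shown by its brightest probe set, and the other probe set of RPL10A rose.

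Other parts of the translation apparatus gave different counts in the panel. Of all genes tested, 28.7% rose and 13.8% fell there, with a median of 0.037. These other lists were counted after quantile normalisation only, here and in the comparisons below. Of the ribosomal proteins with other names, 1 of 4 was tested: FAU, whose protein is made as a fusion with a ubiquitin-like domain, rose by 0.056 ± 0.015 (adjusted p = 0.00419). Of 24 translation factors tested, 3 rose and 8 fell, with a median of -0.0080. The largest falls were those of EIF5A, which helps the ribosome through proline stretches (-0.72 ± 0.10), of the poly(A)-binding protein PABPC1 (-0.33 ± 0.032) and of the helicase cofactor EIF4B (-0.28 ± 0.031). Of 76 mitochondrial ribosomal proteins, which serve the separate ribosome of mitochondria, 49 rose and 3 fell, with a median of 0.14. MRPS18C (0.41 ± 0.033), MRPL27 (0.34 ± 0.035) and MRPS21 (0.33 ± 0.032) changed most.

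In TK6 the pattern was not that of a shared rise. By the brightest probe sets, RPS27L rose strongly, 4 core genes rose, and 10 core genes and RPL36AL fell (limma contrast, adjusted p below 0.05). The other 38 core genes and 5 paralogues did not pass. Of all genes tested, 41.2% passed, 21.6% with a rise and 19.5% with a fall. The core median was -0.030 and that of all genes -0.029. With values as deposited 0 core genes rose and 5 fell, and with centring on medians 0 rose and 1 fell. Without untreated replicate 1 of TK6, 10 members passed in place of 16, as did 10 without the trend and 6 with the TK6 and MT1 arrays alone.

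RPS27L stood at 12.73 and 12.72 in the TK6 arrays with MNNG, against 11.20 and 11.38 untreated. The groups lay far apart, and the change was 1.43 ± 0.086 (adjusted p = 1.48e-17), a fold of 2.70. Its other probe sets gave 1.67 and 2.36, and with centring on medians the change was 1.19. RPS7, known to bind MDM2, had levels of 12.84 and 12.86 with MNNG, against 12.68 and 12.70 untreated, and rose by 0.16 ± 0.035 (adjusted p = 0.000280) in its brightest probe set. Its other probe set, nearly as bright, changed by -0.071 (adjusted p = 0.255), and the mean of both by 0.043 (adjusted p = 0.245). RPS28 (0.15 ± 0.042), RPS19, the gene most often mutated in Diamond-Blackfan anaemia (0.14 ± 0.032), and RPL39 (0.12 ± 0.040) rose by like amounts, and RPL39 lost its call when untreated replicate 2 was left out (0.12, adjusted p = 0.0599). For these 4 core genes the arrays of both groups did not overlap, and with centring on medians their changes were between -0.14 and -0.0091. Averaged over probe sets, RPS28 (0.12, adjusted p = 0.144) and RPS19 (0.21, adjusted p = 0.210) did not pass, although the second brightest probe set of RPS19 did (0.15, adjusted p = 0.00130).

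Among the brightest probe sets, the falls in TK6 were led by large-subunit genes. Some dimmer probe sets changed more (limma, adjusted over probe sets). Those of RPL31 changed by -1.45 (adjusted p = 1.42e-14) and -0.81, of RPL37 by -0.91 (adjusted p = 3.05e-09) and of RPL37A by -0.92 (adjusted p = 2.87e-06). The brightest probe sets of these genes changed by -0.093, 0.090 and -0.069. A dim probe set of RPS27 rose by 0.75 (adjusted p = 2.01e-05). RPL36 stood at 11.79 and 11.50 with MNNG, against 12.13 and 12.38 untreated, a change of -0.61 ± 0.20 (adjusted p = 0.0134). Its call was lost without MNNG replicate 2 (-0.47, adjusted p = 0.159) and without untreated replicate 2 (-0.49, adjusted p = 0.136). RPL22 stood at 12.36 and 12.42 with MNNG, against 12.74 and 12.66 untreated, a change of -0.31 ± 0.055 (adjusted p = 9.42e-06), and all 5 of its probe sets were lower, by -0.20 to -0.95. RPL12, at the base of the factor-binding stalk, stood at 12.87 and 12.83 with MNNG, against 13.10 and 13.09 untreated, a change of -0.25 ± 0.054 (adjusted p = 0.000238). RPL8 changed by -0.19 ± 0.052 (adjusted p = 0.00200, and 0.0650 without MNNG replicate 2), and RPL35 by -0.13 ± 0.047 (adjusted p = 0.0303). RPL36AL fell by 0.19 ± 0.078 (adjusted p = 0.0468), with levels of 11.28 and 11.39 with MNNG that overlapped 11.67 and 11.37 untreated. The calls of RPL35 (-0.084 and -0.073) and RPL36AL (-0.13 and -0.038) were lost without replicate 1 of the MNNG or the untreated arrays. RPL22L1 changed by -0.092 ± 0.058, RPL26L1 by -0.11 ± 0.082, RPL39L by -0.045 ± 0.10 and RPL7L1 by 0.12 ± 0.052, none of which passed (adjusted p = 0.0586 to 0.773). RPL10L changed by -1.08 ± 0.90 (adjusted p = 0.373), with 1 low array in each group.

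Of the 76 mitochondrial ribosomal proteins 12 rose and 45 fell in TK6, with a median of -0.42. Among all genes tested 21.6% rose and 19.5% fell, with a median of -0.029. The largest falls were those of MRPL58 (-1.20 ± 0.13), MRPS27 (-1.15 ± 0.093) and MRPL54 (-1.12 ± 0.13). Of the 24 translation factors 2 rose and 10 fell, among them the cap-binding protein EIF4E (-1.20 ± 0.13), while EIF5 rose (0.94 ± 0.10).

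In MT1, where 1 MNNG array was left, 0 of 52 core genes and 1 of 7 paralogues passed, and of all genes tested 3.53% did (2.33% with a rise and 1.2% with a fall). The lone array was assumed to vary like the other groups. At an unadjusted p below 0.05 in limma, 4 core genes and 4 paralogues passed, against 15.3% of all genes. RPS27L stood at 11.65 with MNNG, against 11.11 and 11.32 untreated, a change of 0.44 ± 0.10 (adjusted p = 0.0126) and a fold of 1.35. Without untreated replicate 1 the change of RPS27L was 0.33 and the call was lost. With centring on array medians its change was 0.029, and the call was lost there and with the TK6 and MT1 arrays alone. Its dimmer probe sets changed by 0.39 and 0.69. The changes of core genes ran between -0.11 and 0.33, with a median of 0.036 against 0.033 for all genes. Of the mitochondrial ribosomal proteins 5 of 76 rose and 0 fell.

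The difference between the responses of TK6 and MT1, tested as TK6 minus MT1 in the same model, passed for 5 core genes and 4 paralogues, against 24.7% of all genes. The count of 9 members was 2 with values as deposited, 0 with centring on medians and 1, RPS27L, with the TK6 and MT1 arrays alone. The core median difference was -0.059 after quantile normalisation, -0.046 with values as deposited and 0.20 with centring, under which RPL35 was at 0.037. These values are from the brightest probe sets. Dimmer probe sets had differences of -1.52 and -1.19 for RPL31, -1.26 for RPL37A and 0.89 for RPS27. RPS27L rose more in TK6, by 0.99 ± 0.14 (adjusted p = 2.08e-07), and its difference was 1.29 and 1.67 in the other probe sets. With centring on medians the difference was 1.16 and did not pass (adjusted p = 0.0830). RPS19 also had a higher response in TK6 (0.14 ± 0.051, adjusted p = 0.0478), a call lost under each of 6 replicates left out in turn (adjusted p = 0.0619 to 0.117). The other 7 had lower responses in TK6. RPL36AL (-0.38 ± 0.12, adjusted p = 0.0197), RPL26L1 (-0.35 ± 0.13, adjusted p = 0.0414) and RPL22L1 (-0.31 ± 0.092, adjusted p = 0.00998) were paralogues. RPL22 (-0.29 ± 0.087, adjusted p = 0.0109), RPL12 (-0.27 ± 0.086, adjusted p = 0.0180), RPL35 (-0.26 ± 0.075, adjusted p = 0.00780) and RPL3, which reaches to the peptidyl transferase centre (-0.18 ± 0.064, adjusted p = 0.0382), were core genes. In RPL22L1 the MT1 array with MNNG stood at 12.13, above 11.92 and 11.91 untreated, whereas TK6 had 11.43 and 11.57 with MNNG, against 11.64 and 11.55 untreated. The count of 9 was 3 without untreated replicate 1 of TK6 and 4 without untreated replicate 2 of MT1. Without untreated replicate 1 of TK6 the lost calls were those of RPL36AL (-0.22), RPL26L1 (-0.27), RPL22L1 (-0.26), RPL22 (-0.25) and RPL35 (-0.21). Without MNNG replicate 1 of TK6 they were those of RPL36AL (-0.32), RPL26L1 (-0.30), RPL22L1 (-0.24) and RPL35 (-0.22), and without MNNG replicate 2 that of RPL12 (-0.25). Without untreated replicate 2 of MT1 they were those of RPL36AL (-0.29), RPL26L1 (-0.30), RPL22 (-0.23) and RPL12 (-0.25). With these replicates left out, the directions of the genes listed did not change, nor did the call of RPS27L (0.89 to 1.10). Of the mitochondrial ribosomal proteins, 5 had a higher and 43 a lower response in TK6, of 76.

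**Figure D4:**
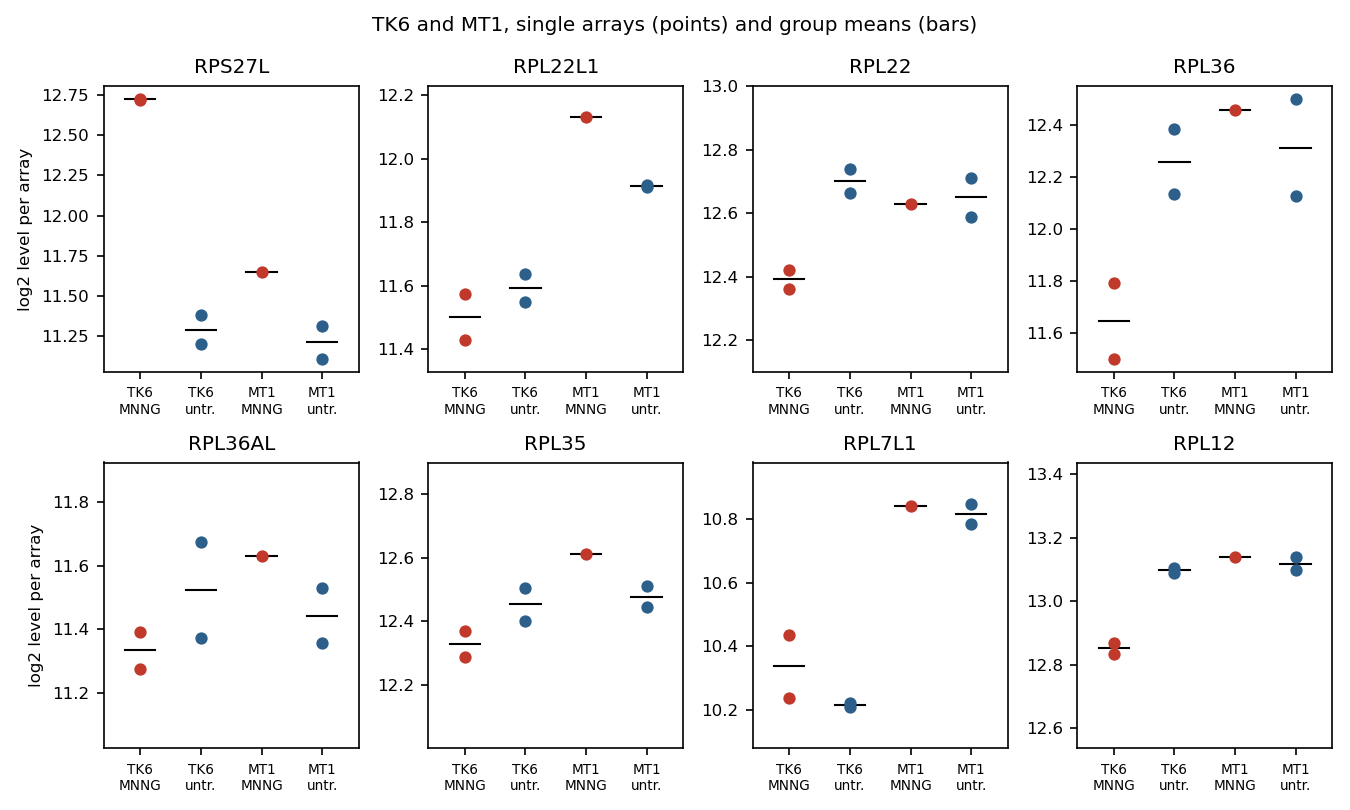
Log2 level of 8 members in single arrays (points) of TK6 and MT1 with MNNG and untreated, with group means as bars; MT1 with MNNG has 1 array and each panel has its own axis. RPS27L is highest in TK6 with MNNG (12.73 and 12.72), RPL22, RPL36 and RPL12 are lowest there, and RPL7L1 separates MT1 from TK6 whatever the treatment.

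Untreated, MT1 differed from TK6 in 0 of 52 core genes and in 2 of 7 paralogues by the brightest probe sets, against 25.2% of all genes tested. Dimmer probe sets of some core genes did differ (limma, adjusted over probe sets). Examples were those of RPL31 (-0.90, adjusted p = 1.80e-08), RPS9 (-0.24, adjusted p = 0.000931) and RPL22 (0.35, adjusted p = 0.0128). RPL7L1 stood at 10.79 and 10.85 in MT1, against 10.22 and 10.21 in TK6, a difference of 0.60 ± 0.052 (adjusted p = 1.91e-12) and a fold of 1.52. RPL22L1 stood at 11.92 and 11.91 in MT1, against 11.64 and 11.55 in TK6, a difference of 0.32 ± 0.058 (adjusted p = 2.77e-05). In both genes the arrays of the lines did not overlap. In the brightest probe sets the core differences, MT1 minus TK6, ran between -0.16 and 0.085. Of these, 2 of 52 passed at an unadjusted p below 0.05 in limma, against 33% of all genes. With centring on medians the calls of RPL7L1 (0.56, adjusted p = 0.0808) and RPL22L1 (0.31, adjusted p = 0.521) were lost. Without untreated replicate 1 of MT1, 4 members passed.

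Whether panel lines differed in their response was tested with limma's F test, which 6.77% of all genes passed. It passed for 0 of 52 core genes and for 2 of 7 paralogues, RPS27L (adjusted p = 0.00555) and RPL7L1 (adjusted p = 0.0219). At an unadjusted p below 0.05, 5 core genes and 4 paralogues did, against 17.9% of all genes. RPS27L changed by 0.80 in line 4, 0.63 in line 1, 0.49 in lines 17 and 18 and 0.48 in line 9, and by 0.082 in line 10, 0.11 in line 14 and 0.13 in line 5. Without line 4 its call was lost (adjusted p = 0.0784), as it was with values as deposited (adjusted p = 0.359) and with centring (adjusted p = 0.470). RPL7L1 changed by 0.25 in line 23 and 0.23 in line 9, and by -0.12 in line 2. Its call was lost without line 2 (adjusted p = 0.141), line 9 (adjusted p = 0.0548) or line 23 (adjusted p = 0.0532), and under either other scaling (adjusted p = 1.00 as deposited and 0.324 with centring). The count of members was 1 without line 2, 4, 9 or 23 and 4 without line 18.

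Untreated levels differed between the 26 lines in 30 of 52 core genes and 6 of 7 paralogues, against 69.8% of all genes tested (limma's F test on single arrays). Together these were 36 members, against 22 with values as deposited, 12 with centring on medians and 21 without the trend. The sizes differed more than the counts. The range between the lowest and the highest line had a median of 0.23 over the core genes and 0.94 over the paralogues, against 0.93 over all genes tested. The exception among paralogues was RPL10L, whose range of 2.65 went with an SD between duplicates of 1.02 (adjusted p = 0.322). Mean levels over the arrays were 8.18 to 11.92 for the paralogues tested. For the core genes they were 11.96 to 13.28, apart from the dim RPL27A, RPL36A and RPLP2. The ranges were taken after quantile normalisation only, and the part that level or scaling plays in them was not tested.

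RPL39L varied most clearly. It stood at 9.37 in TK6 and 9.12 in MT1, above all panel lines, which lay between 7.47 in line 11 and 8.63 in line 20 (adjusted p = 1.89e-15, SD between duplicates 0.099). RPS27L lay between 10.71 in line 8 and 12.05 in line 5, a fold of 2.53 (adjusted p = 8.56e-13), with TK6 at 11.29 and MT1 at 11.21 near the median of 11.23. Line 7, at 11.95, came next below line 5, and neighbours in the middle of the order, such as line 20 at 11.22 and MT1, differed by less than the SD between duplicates of 0.099. RPL7L1 lay between 10.21 in line 22 and 10.82 in MT1 (adjusted p = 4.42e-12), and RPL22L1 between 11.50 in line 22 and 12.14 in line 3 (adjusted p = 2.01e-10). RPL26L1 spanned 0.94 (adjusted p = 5.96e-07) and RPL36AL 0.50 (adjusted p = 0.000979). Of the core genes RPS4X had the largest F, with a fold of 1.20 between the lowest and the highest line (adjusted p = 5.32e-09). By comparison RPS27 spanned 0.23, RPL22 0.28, RPL35 0.20, RPL39 0.14 and RPL7 0.099.

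**Figure D5:**
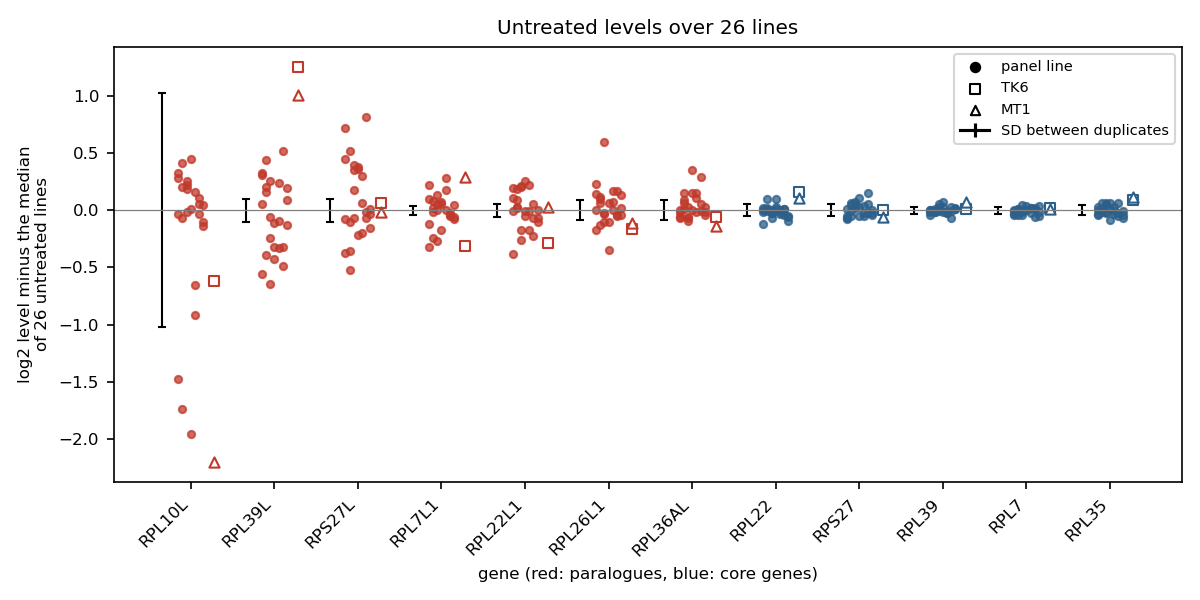
Untreated log2 level of 7 paralogues (red) and 5 core genes (blue) in 26 lines, as the difference from the median of the lines; squares are TK6, triangles MT1, and the black bar is the SD between duplicate arrays. RPL39L is highest in TK6 and MT1, and the core genes span 0.099 to 0.28.

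Untreated levels of a paralogue and its core counterpart were related over the 24 panel lines for the 5 pairs in which both genes were tested. They were RPL22 with RPL22L1, RPS27 with RPS27L, RPL39 with RPL39L, RPL36A with RPL36AL and RPL7 with RPL7L1. None of the 5 passed after adjustment over 5 pairs (Pearson, 100000 permutations, two-sided, adjusted p = 0.0922 to 0.635), and 1 did at an unadjusted p. That pair was RPL39 and RPL39L, with r = -0.48 (p = 0.0184) and rho = -0.41 (p = 0.0482, adjusted p = 0.241). Without the 2 lines farthest from the median of RPL39, r was -0.42. Without replicate 1 it was -0.58 and passed after adjustment (adjusted p = 0.0142). With centring on array medians r was 0.61, so its sign depended on the scaling. The other 4 pairs had r between 0.10 and 0.24 and rho between 0.13 and 0.25. Values as deposited and centred values each gave 4 passing pairs of 6, the sixth being RPL3 with RPL3L.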

How the data were processed

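RNA of 26 lymphoblastoid lines, with MNNG and untreated, was measured on Affymetrix arrays, and the authors deposited 1 intensity per probe set and array, on a linear scale from 16 to 65535, computed with PLIER per the submitters' processing notes. Probe sets were named with the platform annotation: 41097 had 1 symbol, and 1801 with several and 11777 with none were left out. Intensities were taken as log2 of the value plus 16, quantile normalised, and the brightest probe set stood for each gene. The dimmest 30% of genes were left out. The MNNG arrays that the cre rule (over 2 log2 units) set aside entered no main result.

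Linear models were fitted with limma 3.58.1 (lmFit, eBayes with trend) in R 4.3.3 with the data.table package (1.17.8); Python 3.11.15, pandas 2.3.3 and matplotlib 3.10.9 served the sequence windows and figures. In the panel, arrays of 1 line and treatment were averaged, with line as a block. TK6 and MT1 contrasts came from 1 model with a mean for each line and treatment, and differences between lines from F tests. Adjusted p-values are Benjamini-Hochberg over 13842 genes, called below 0.05, and errors after ± are standard errors. The analysis was tested on simulated data in which arrays varied independently. Those data had no effect of replicate number and no floor, so they cannot show how the tests behave under either. Members and lists were chosen with earlier results of these data known. Named genes were all paralogues and their core counterparts, RPL35, up to 5 called members with the largest change each way, up to 5 with the largest F, and up to 3 per other list; RPL38, RPS10, RPL35A, RPL36 and RPLP2 in the panel, RPL35 in TK6 and RPL3 for TK6 minus MT1 were named after their values were seen. Alternatives were all arrays, pseudocounts of 1 and 64, no scaling or median centring of arrays, no filter, a 50% filter, mean of probe sets, no trend, a replicate block, no line block, the TK6 and MT1 arrays alone, other probe sets (added after seeing the data), and leaving out replicates or lines. Arrays were not treated as pairs by replicate number: in 9 lines with both MNNG arrays, deviations of same-numbered arrays correlated between -0.62 and 0.14. Lines with fewer MNNG arrays left could not enter this check. Among them were lines 1, 3, 8 and 13 and MT1, which had low RPL10L values in untreated replicate 2.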

Additional observations from a re-analysis of the deposited data

Results flagged for a closer look

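The response to MNNG differed between TK6 and MT1 in 9 members by a test of the difference itself (limma, TK6 minus MT1). RPS27L had the larger response in TK6 (0.99), as did RPS19 (0.14). The response was lower in TK6 for RPL36AL (-0.38), RPL26L1 (-0.35), RPL22L1 (-0.31), RPL22 (-0.29), RPL12 (-0.27), RPL35 (-0.26) and RPL3 (-0.18). MT1 had 1 MNNG array in each of these values. The 9 became 2 with values as deposited, 0 with centring on medians and 1 with the TK6 and MT1 arrays alone. The call of RPS19 was lost with each of 6 replicates left out, and RPL35 was at 0.037 with centring. Between panel lines, the response of RPS27L (adjusted p = 0.00555) and of RPL7L1 (adjusted p = 0.0219) differed by limma's F test. The part of single lines in both is given with those results above.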

How the results depend on the processing

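Of 1020 values of called genes recomputed under the alternatives, 828 kept their direction and side of the threshold, 159 kept their direction but no longer passed and 33 reversed. Of 163 alternative counts of called members or passing pairs, 122 stayed within 1.5 times. The main counts were 34 of 59 in the panel, 16 in TK6, 1 in MT1, 9 for TK6 minus MT1, 2 for untreated MT1 minus TK6, 2 for response differences between lines, 36 for untreated lines and 0 pairs.

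With all arrays the counts were 0 for response differences, for untreated MT1 minus TK6, for TK6 minus MT1, and for MT1 and TK6 on their own. The panel changes of RPL10L (-0.56), RPS27L (-1.94), RPL26L1 (-1.77), RPL22L1 (-2.49), RPL35 (-2.47), RPL36AL (-2.10) and RPL39L (-0.39) reversed. So did RPS27L in MT1 (-2.55), and for TK6 minus MT1 RPL36AL (2.63), RPL26L1 (1.93), RPL22L1 (2.87) and RPL35 (2.42). With values as deposited the counts were 15 in the panel, 6 in TK6, 2 for TK6 minus MT1, 0 for response differences, 22 for untreated lines and 4 pairs, and RPL22 was at -0.014 in the panel. With centring on array medians they were 20 in the panel, 2 in TK6, 0 in MT1, 0 for TK6 minus MT1, 0 for untreated MT1 minus TK6, 0 for response differences, 12 for untreated lines and 4 pairs. Centring reversed RPL22L1 (-0.0099), RPL22 (-0.17), RPL35 (-0.11), RPL36AL (-0.045), RPL39L (-0.0074) and RPL7L1 (-0.079) in the panel, RPS7 (-0.11), RPS28 (-0.14), RPS19 (-0.0091) and RPL39 (-0.063) in TK6, RPL35 for TK6 minus MT1 (0.037), and the correlation of RPL39 with RPL39L (0.61).

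The 50% filter gave 5 for response differences. The mean of probe sets gave 14 for TK6 minus MT1 and 5 for untreated MT1 minus TK6, and turned RPL10A (0.023) and RPL22 (-0.014) in the panel. Other probe sets gave -0.032 and -0.17 for RPL22 and 0.12 for RPL10A there, -0.071 for RPS7 and -0.023 for RPS28 in TK6, and -0.15 for RPS19 in TK6 minus MT1. Without the trend the counts were 10 in TK6, 1 for response differences and 21 for untreated lines. Without the line block the panel had 21. The TK6 and MT1 arrays alone, with fewer arrays to estimate the spread, gave 1 for TK6 minus MT1, 6 in TK6 and 0 in MT1. Leaving out replicates or lines gave 10 to 35 in the panel, 10 to 15 in TK6, 0 to 1 in MT1, 3 to 11 for TK6 minus MT1, 2 to 4 for untreated MT1 minus TK6, 1 to 4 for response differences, 31 to 39 for untreated lines and 0 to 1 pairs, and RPL8 in the panel was at 0.022 without replicate 1 and -0.082 without replicate 2. The replicate block gave 39 in the panel, where it was fitted on single arrays and not on line means. It gave 19 in TK6, 1 in MT1, 13 for TK6 minus MT1 and 2 for untreated MT1 minus TK6. For response differences it gave 2, and for untreated lines 40. Causes of these shifts were not tested. Values near the bottom of the scale, such as those of RPL36A and RPLP2, limit what changes can be read there.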
